A study of Mus musculus with 24 samples.

Results

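The arrays described here are the 8, of 24 in the series, that hold lung RNA taken 72 h after an intratracheal dose of bleomycin or saline. They were chosen by their time label and comprise 4 bleomycin and 4 saline arrays, with both mouse strains pooled. The treated groups were BALB/c mice and C57BL/6J mice given 1.5 U per kg bleomycin into the trachea, with 2 arrays (a and b) each. The control groups were saline-treated mice of the same strains, again with 2 arrays each. Bulk lung RNA was hybridised, and the other 16 arrays hold the same groups at 24 h and at 14 d. The labels do not say whether arrays a and b came from separate mice, nor the age or sex of the mice. The p-values below therefore rest on the spread between such arrays, which may be technical. In the pooled test that spread also takes in any difference of the bleomycin effect between the strains.

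Bleomycin is an antitumour glycopeptide that, with iron and oxygen, breaks DNA strands, and a dose into the airway is the standard way to injure the mouse lung. The injury is known to pass through an early inflammatory stage before collagen accumulates, and C57BL/6 mice are known to scar more readily than BALB/c mice. Cells with broken DNA stabilise the transcription factor p53, whereas injured epithelium and incoming myeloid cells release chemokines, acute phase proteins and interferons. The 72 h arrays therefore bear on the inflammatory stage.

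The strain of each array was checked with H2-Ea, an MHC class II alpha chain gene that C57BL/6 mice do not transcribe. On the 16 arrays at the other times, H2-Ea read between 25.6 and 166 on those titled C57 and between 2917 and 6068 on those titled BALB. At 72 h the bleomycin arrays followed their titles, with 51.7 and 37.2 in C57BL/6J and 3833 and 4413 in BALB/c. The saline arrays went against theirs. Both arrays titled BALB read 89.5 and 48.3, and both titled C57 read 4821 and 3622. Because H2-Ea was used to set the strain, these values are a description and carry no test. Below, an array with H2-Ea under 500 belongs to the C57BL/6J block and one over 1500 to the BALB/c block, so the saline arrays of the C57BL/6J block are those titled BALB. The descriptions of these same arrays name bleomycin although their titles name saline, and the titles were followed. The pooled difference is the same whichever strain the saline arrays are given, since each treatment holds 2 arrays of each block, and only its error changes.

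The values are deposited intensities of 12488 probe sets on a linear scale, scaled so that the trimmed mean of each array was 799.9. Differences are given as log2(intensity + 92), bleomycin minus saline, with standard errors (SE), so changes of dim genes are understated. Of the probe sets, 8710 rose above the dimmest 40% of the table on at least 2 arrays and were tested with limma, and each of 6464 genes was represented by its brightest probe set. Replicate arrays of a group correlated at 0.963 to 0.979 over probe sets. Lung markers were present on all 8 arrays. Ager, an alveolar type 1 cell receptor, ranged from 4248 to 14080, and Scgb1a1, the club cell secretory protein, from 1211 to 21462. In bulk RNA, fewer cells of a type and less RNA per cell cannot be told apart. With so few arrays, their number limits the precision.

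Against the saline arrays of 72 h, more genes rose with bleomycin than fell. Of the 6464 genes, 193 rose (2.99% of those tested) and 68 fell (1.05%) at an adjusted p under 0.05. With the saline arrays of 14 d as the control 280 rose and 277 fell, and with those of 24 h and 14 d 168 rose and 182 fell, so that balance did not hold with other controls. The largest rises were those of the acute phase gene Saa3, the monocyte attractant Ccl2, the iron-binding protein gene Lcn2 and the chemokine gene Ccl8. The largest fall was that of Tff2, a trefoil peptide gene, whose groups overlapped. Among genes with separate groups the falls were led by the clock output factor gene Dbp, the xenobiotic enzyme gene Cyp1a1 and the growth factor binding protein gene Igfbp3. By probe set, 338 passed (3.88% of 8710), with 249 higher (2.86%) and 89 lower (1.02%). All 4 bleomycin arrays lay above all 4 saline arrays for 465 genes (7.19%) and below them for 295 genes (4.56%), and 171 of the risen and 59 of the fallen genes were among these. The count depended on which array was left out and on the block. Leaving out 1 array gave 113 to 382 probe sets, with at most 192 when either C57BL/6J bleomycin array, the second BALB/c bleomycin array or either array titled BALB saline was absent.

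**Figure D1:**
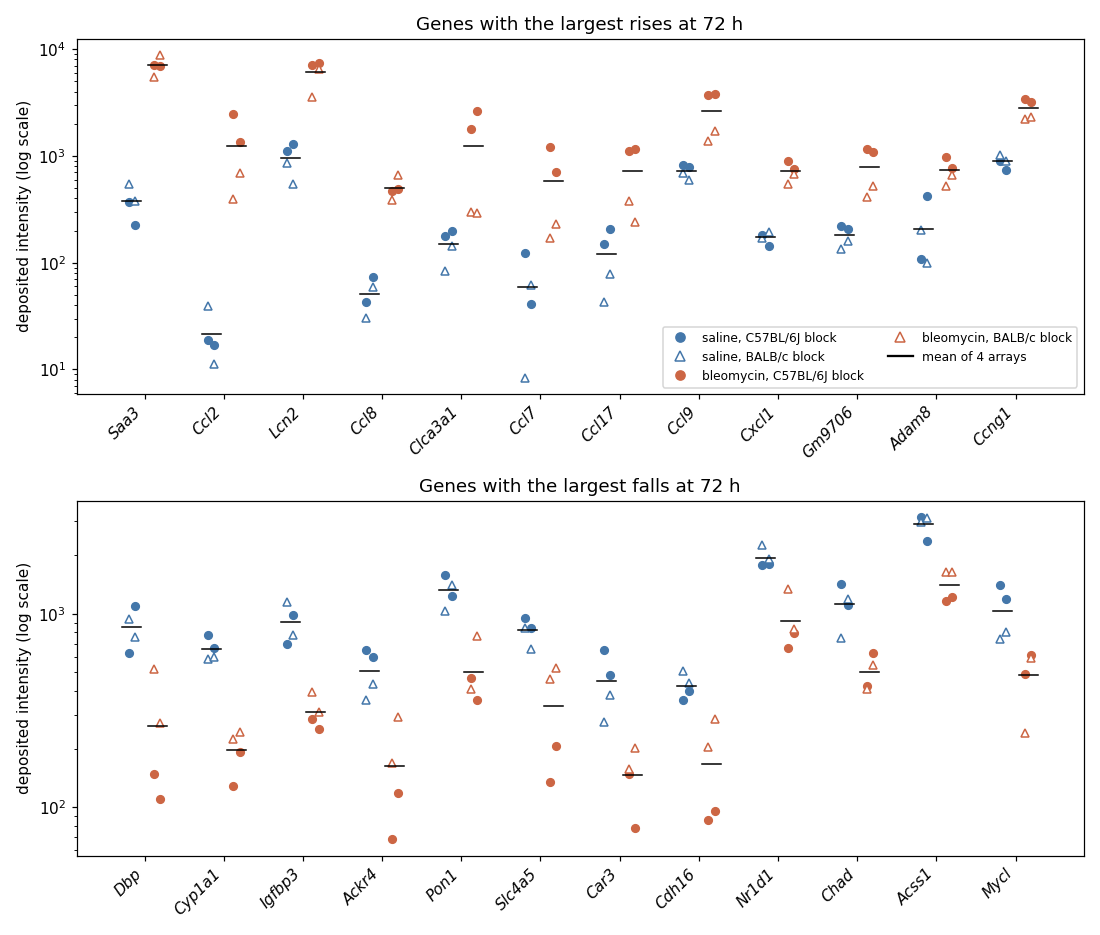
Deposited intensity (log axis) on each of the 8 arrays for the 12 largest rises and the 12 largest falls among genes with separate groups. Filled circles are the C57BL/6J block, open triangles the BALB/c block, and the black line is the mean of 4 arrays. Saa3 sits between 224 and 541 with saline and between 5441 and 8804 with bleomycin.

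Saa3, serum amyloid A3, an acute phase protein made in the lung by epithelium and macrophages, changed most. In the order C57BL/6J block a and b, then BALB/c block a and b, which is kept throughout, Saa3 read 372, 224, 541 and 381 with saline and 7167, 6910, 5441 and 8804 with bleomycin. The groups were far apart and both blocks took part, with a pooled log2 difference of 3.95 (SE 0.19, adjusted p = 1.78e-05) and 4.22 and 3.68 in the C57BL/6J and BALB/c blocks. Of the 10 acute phase genes tested, 5 rose (Saa3, Kng1, Orm1, Serpina3n and Saa2), none fell, and the median log2 difference was 0.82, against -0.01 over all genes tested. The pooled count of each list below stands beside the same shares over all genes tested, 2.99% risen, 1.05% fallen and 47.5% with a positive difference. Serpina3n, a secreted protease inhibitor, read 2411, 2521, 1336 and 1434 with saline and 6523, 6586, 2891 and 2946 with bleomycin. It rose by 1.20 (SE 0.10, adjusted p = 0.000389), and within each block the arrays of a treatment lay close together. Orm1, a plasma acid glycoprotein, read 9.13 to 28.9 with saline and 103 to 257 with bleomycin, without overlap (1.29, SE 0.20). Saa2 rose by 0.92 (SE 0.17) on its brighter probe set, while a second probe set differed by 0.10. Hp, haptoglobin, did not pass (-0.54, adjusted p = 0.127).

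CC chemokines, which draw monocytes and lymphocytes out of the blood, rose in 5 of the 11 members tested, and none fell. The list had a median of 1.19. Ccl2, the main monocyte attractant, read 19.0, 17.1, 39.2 and 11.3 with saline and 2484, 1363, 395 and 699 with bleomycin. Each bleomycin array stood far above each saline array, and the C57BL/6J arrays stood highest (3.28, SE 0.35, adjusted p = 0.00134). Ccl8 read 43.1, 72.9, 30.3 and 59.5 with saline and 470, 494, 390 and 664 with bleomycin. Here both blocks reached like values, with log2 differences of 1.94 and 2.15. Ccl7 read 8.39 to 124 with saline and 171 to 1212 with bleomycin (1.91, SE 0.31). Ccl9 read 595 to 828 and 1371 to 3827 (1.62, SE 0.18). Ccl17, a ligand for CCR4 on T cells, read 151, 208, 43.0 and 78.5 with saline and 1103, 1163, 379 and 242 with bleomycin, with no overlap (1.78, SE 0.20, adjusted p = 0.00161). Ccl2, Ccl7, Ccl8 and Ccl9 all lie on chromosome 11. Ccl3 (0.10), Ccl6 (0.04), Ccl22 (0.07) and Ccl5 (-0.46, adjusted p = 0.108) did not pass. In the BALB/c block alone, which leaves out the arrays whose description names bleomycin, 4 members passed upward, against 0.449% of all genes tested in that block, and 9 of 11 had a positive difference, against 47.5%.

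Among CXC and other chemokines, Cxcl1 and Cxcl2, neutrophil attractants that share the receptor CXCR2, rose, and 2 of 8 tested members passed in all. Cxcl1 read 183, 142, 169 and 195 with saline and 892, 755, 551 and 679 with bleomycin. The groups were well separated (1.60, SE 0.15, adjusted p = 0.000552), and a second probe set gave 1.45. Cxcl2 was dim, at 14.3 to 58.7 with saline and 111 to 152 with bleomycin (0.83, SE 0.18, adjusted p = 0.0331). Its sign turned, to -0.63, when the saline arrays of 24 h and 14 d served as the control. On those arrays Cxcl2 read 97.8 to 3839 at 24 h and 18.4 to 154 at 14 d. The interferon-induced Cxcl10 (1.09, adjusted p = 0.0637) and the B cell attractant Cxcl13 (0.98, adjusted p = 0.0695) missed the threshold.

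The promoters of Cxcl1 and Cxcl2 are shown because both genes rose and both hold a match to a form of the kappaB site bound by NF-kappaB, in capitals below. They are the RefSeq GRCm38.p6 sequences of the 250 bases before each gene's start, both on the plus strand, at chr5:90890995-90891244 and chr5:90903649-90903898.
Cxcl1: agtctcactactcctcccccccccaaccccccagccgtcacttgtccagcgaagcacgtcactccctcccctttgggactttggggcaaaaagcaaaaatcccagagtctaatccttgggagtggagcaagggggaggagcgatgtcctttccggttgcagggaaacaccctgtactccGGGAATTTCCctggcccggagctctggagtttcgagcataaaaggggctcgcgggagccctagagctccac
Cxcl2: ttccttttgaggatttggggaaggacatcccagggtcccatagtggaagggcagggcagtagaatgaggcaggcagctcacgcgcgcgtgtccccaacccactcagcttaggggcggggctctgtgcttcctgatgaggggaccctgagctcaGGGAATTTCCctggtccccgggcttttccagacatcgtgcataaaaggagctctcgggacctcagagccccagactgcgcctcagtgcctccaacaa
In windows of 250 bases before to 50 after the start, searched on both strands, the motif occurred in 135 of 32851 RefSeq promoters (0.411%). It starts 71 bases before the Cxcl1 start and 97 bases before the Cxcl2 start. None of the 5 CXC genes with a window that did not pass the test held it, nor any of the 3 risen CC chemokine genes or the 3 risen acute phase genes with a window. A match is a description of the letters and not evidence of binding.

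Of 14 genes of chemokine and myeloid growth factor receptors, 3 rose and none fell, with a median of 0.12. Ccr1, a receptor for several CC chemokines, read 195, 172, 233 and 198 with saline and 564, 583, 278 and 435 with bleomycin (0.90, SE 0.18, adjusted p = 0.0278), and the groups did not overlap. C3ar1, the receptor for the complement fragment C3a, rose by 0.91 (adjusted p = 0.0496), and Ccr2, the receptor for Ccl2, rose by 0.62 (adjusted p = 0.0189) with overlapping groups. Of 28 macrophage and monocyte genes, 5 rose (Ncf4, Lgals3, Fcgr2b, Cd14 and Ctsk) and none fell, with a median of 0.33. Lgals3, galectin-3, read 1696, 1952, 1906 and 1450 with saline and 3716, 3827, 2279 and 2696 with bleomycin, without overlap (0.78, SE 0.13, adjusted p = 0.0121). The summed level of the macrophage list overlapped between groups, at 48629 to 56318 with saline and 48482 to 61151 with bleomycin. C1qa, C1qb and C1qc, the subunits of complement C1q that lung macrophages make, rose by 0.91, 1.05 and 0.63 on the brightest probe sets, although the second C1qb probe set gave -0.00. They were the 3 of 11 complement genes that passed.

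Of 11 neutrophil genes, 3 rose and none fell, with a median of 0.39. The list's summed level lay at 8260 to 10032 with saline and 11430 to 21218 with bleomycin, without overlap. Bright genes such as Lcn2 weigh most in this sum. Only 2 of the 11 genes had all bleomycin arrays above all saline arrays (7.19% of all genes tested did). Lcn2, lipocalin-2, a protein that binds bacterial siderophores and is made by neutrophils and by injured epithelium, read 1122, 1304, 861 and 551 with saline and 7104, 7465, 3523 and 6468 with bleomycin. Its groups were far apart (2.57, SE 0.19, adjusted p = 0.00018), but a second, dimmer probe set for Lcn2 differed by only -0.05. Il1r2, the decoy receptor for interleukin-1, read 125 to 157 with saline and 224 to 695 with bleomycin (1.22, SE 0.21). S100a8, a calcium-binding protein abundant in neutrophils, rose by 0.83 (SE 0.19, adjusted p = 0.0432) with overlapping groups. Mmp8, neutrophil collagenase, rose in the C57BL/6J block (2.11, adjusted p = 0.0332) and did not pass in the pooled test (1.37, adjusted p = 0.0901). The part of neutrophil number in the Lcn2 and Cxcl1 differences was not tested.

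Of 20 tested genes of cytokines and NF-kappaB feedback, 4 rose, 16 did not pass, and the median was 0.35 (Socs3, Osmr, Il4ra and Il1rn). Socs3, which curbs signalling by the interleukin-6 family, read 638, 599, 504 and 396 with saline and 1591, 1767, 881 and 985 with bleomycin. No array overlapped (1.12, SE 0.12, adjusted p = 0.00136), and a second probe set gave 1.75. Osmr, the oncostatin M receptor, rose by 0.79 (SE 0.15), and Il4ra, the shared receptor chain of interleukins 4 and 13, by 0.77 (SE 0.16), although a second Il4ra probe set gave -0.17. Il1rn, the interleukin-1 receptor antagonist, rose by 0.69 (adjusted p = 0.0391), and its difference was -0.01 against the saline arrays of 24 h and 14 d. Those arrays read 254 to 4081 at 24 h and 324 to 382 at 14 d for Il1rn. Among transcription factors of the immediate early class, Atf3, Cebpd and Egr2 rose by 0.96, 0.92 and 0.84, as 3 of 26 members of that list.

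Of 19 p53 target and DNA damage genes tested, 10 rose (Ccng1, Cdkn1a, Gtse1, Ddit4, Phlda3, Mdm2, Perp, Ckap2, Fas and Ei24) and none fell. In this list 14 had a positive difference, against 47.5% of all genes tested, and the median was 0.63. Cdkn1a, the p21 inhibitor that halts the cell cycle, read 607, 649, 743 and 802 with saline and 2198, 2238, 1946 and 2276 with bleomycin. Both blocks reached about the same level, without overlap with saline (1.51, SE 0.10, adjusted p = 0.000148), and a second probe set gave 1.47. Ccng1, cyclin G1, read 891, 742, 1020 and 900 with saline and 3420, 3195, 2221 and 2301 with bleomycin (1.54, SE 0.15, adjusted p = 0.000993). Phlda3, an inhibitor of AKT signalling, read 1276, 1388, 989 and 937 with saline and 2614, 2931, 2064 and 2020 with bleomycin, with log2 differences of 1.01 and 1.02 in the blocks. Mdm2, the ligase that returns p53 to low levels, read 1512 to 1837 with saline and 2900 to 3631 with bleomycin (0.90, SE 0.10, adjusted p = 0.00193). The death receptor gene Fas (0.74) and the epithelial adhesion gene Perp (0.83) also passed. Gadd45a (0.45, adjusted p = 0.082), Sesn1 (-0.08), Btg2 (-0.16) and Rrm2b (-0.30), further genes known to respond to p53, did not. In the BALB/c block alone 3 members passed upward (0.449% of all genes tested did so) and 17 of 19 were positive (47.5% of all genes). Of 38 cell cycle and replication genes, none passed by limma, 11 had an unadjusted p under 0.05, and the median was 0.13. Their summed level was 25059 to 30040 with saline and 27026 to 29710 with bleomycin.

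Interferon response genes rose in 9 of 27 cases (Ifit1, Irf7, Usp18, Ifit3, Isg15, Lgals3bp, Mx1, Ifih1 and Tap1), none fell, and 25 of 27 differences were positive, with a median of 0.48. Ifit1, which binds foreign RNA ends, read 413, 544, 406 and 375 with saline and 2073, 1670, 829 and 981 with bleomycin. The C57BL/6J bleomycin arrays were highest and no array overlapped (1.41, SE 0.17, adjusted p = 0.00208). Isg15, a ubiquitin-like modifier, read 1130, 1048, 664 and 771 with saline and 3221, 2391, 1311 and 1473 with bleomycin (1.08, SE 0.13, adjusted p = 0.00219). Usp18, the protease that removes ISG15 from proteins, read 697, 614, 485 and 417 with saline and 2176, 1842, 893 and 1151 with bleomycin (1.26, SE 0.13, adjusted p = 0.00134). Within each block the Isg15 and Usp18 arrays of the treatments were separate. Lgals3bp, a secreted galectin-3 binding protein, read 1472 to 1827 with saline and 2905 to 4702 with bleomycin (1.06, SE 0.11). Irf1 (-0.15), Psmb9 (0.20) and Ifitm3 (-0.39), which also answer to interferon, did not pass.

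Promoters of Isg15, Ifit1 and Ifit3 are shown because these 3 risen genes hold matches to a core of the interferon-stimulated response element before the start. Capitals mark the matches, which lie on the strand opposite to the one shown in Ifit1 and Ifit3 and overlap one another in Isg15. The RefSeq GRCm38.p6 sequences of the 250 bases before the start lie at chr4:156200819-156201068 on the minus strand (Isg15), chr19:34640639-34640888 on the plus strand (Ifit1) and chr19:34583279-34583528 on the plus strand (Ifit3).
Isg15: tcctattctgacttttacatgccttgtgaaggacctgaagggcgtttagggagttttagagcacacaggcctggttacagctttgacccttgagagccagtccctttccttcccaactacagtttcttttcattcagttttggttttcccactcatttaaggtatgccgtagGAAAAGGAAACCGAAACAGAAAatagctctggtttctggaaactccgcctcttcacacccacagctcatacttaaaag
Ifit1: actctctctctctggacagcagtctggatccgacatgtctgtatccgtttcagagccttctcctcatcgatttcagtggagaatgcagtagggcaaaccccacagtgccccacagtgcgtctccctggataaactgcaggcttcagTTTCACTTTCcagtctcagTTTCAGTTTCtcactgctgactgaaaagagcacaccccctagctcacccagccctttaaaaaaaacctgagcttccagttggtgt
Ifit3: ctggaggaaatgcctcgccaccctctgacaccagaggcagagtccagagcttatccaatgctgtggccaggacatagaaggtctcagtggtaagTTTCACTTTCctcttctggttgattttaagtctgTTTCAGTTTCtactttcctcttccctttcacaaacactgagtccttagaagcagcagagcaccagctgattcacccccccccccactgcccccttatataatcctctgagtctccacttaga
Isg15 holds 3 overlapping matches and the others 2 each. Of the 9 risen interferon genes, 7 had a window and 4 held a match, Ifih1 being the fourth with a match after its start. Of the 15 with a window among those that did not pass, 7 held one. Over all windows of 250 bases before to 50 after the start, on both strands, the share was 3.44% (1131 of 32851). The same search for CACGTG, the E-box bound by CLOCK and BMAL1, matched 7.15% of windows, and among clock genes it matched 1 of 4 that fell (Tef) and 2 of 6 that did not pass.

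Mt2 and Mt1, the metallothioneins that bind zinc and copper, read 1938 to 3011 and 1474 to 1927 with saline and 5605 to 8251 and 2300 to 6313 with bleomycin. Neither overlapped, with log2 differences of 1.52 (SE 0.16, adjusted p = 0.0013) and 1.26 (SE 0.17, adjusted p = 0.00434). Gclc, the rate-limiting enzyme of glutathione synthesis, rose by 0.85 (adjusted p = 0.0266), with 1.29 in the C57BL/6J block and 0.40 in the BALB/c block. These were the 3 of 30 oxidant defence genes that passed, and the list's median was -0.07. Atf4 and Manf, of the unfolded protein response, rose by 0.60 and 0.59 as 2 of 17. That count depended on the control. Against the saline arrays of 14 d none of the 17 rose and 2 fell, and against those of 24 h and 14 d none rose and 1 fell. Atf4 read 2949 to 3398 on the saline arrays of 72 h and 3460 to 4905 on those of 14 d. Fdps, Sqle and Idi1, enzymes of sterol synthesis, rose by 0.79, 0.76 and 0.63 as 3 of 18, although Fdps reached -0.12 against the saline arrays of 14 d.

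Of 16 genes linked to injured or regenerating epithelium, 6 rose (Clca3a1, Sfn, Itgb4, Krt18, Krt8 and Krt19) and none fell, with a median of 0.36. Krt8, a keratin of simple epithelium, read 2894, 3139, 2591 and 2453 with saline and 5513, 5371, 3860 and 4281 with bleomycin. The groups were separate (0.75, SE 0.09, adjusted p = 0.00202), and its partner Krt18 rose by 0.88 (SE 0.15). Sfn, the 14-3-3 sigma protein of epithelium and also a known p53 target, read 364, 360, 197 and 110 with saline and 1406, 1302, 362 and 546 with bleomycin (1.41, SE 0.17, adjusted p = 0.00232). None of the 9 alveolar type 2 or the 6 alveolar type 1 genes passed, and their medians were -0.37 and -0.35. By limma, 4 and 3 of them had an unadjusted p under 0.05. In the C57BL/6J block the medians were -0.74 and -0.58, and in the BALB/c block -0.02 and -0.03. Slc34a2, the phosphate transporter of type 2 cells, for example, read 9418, 12879, 8659 and 7861 with saline and 5756, 5862, 8180 and 7003 with bleomycin (-0.52, adjusted p = 0.126). Of 9 airway genes, Tff2, a trefoil peptide of mucus, alone fell (-1.71, SE 0.28, adjusted p = 0.012), from 1130, 1150, 328 and 216 to 106, 224, 33.2 and 127.

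Of 42 collagen and matrix genes, 6 rose (Lox, Tnc, Col5a2, Vcan, Col3a1 and Col1a1), none fell, and the median was 0.09. Lox, lysyl oxidase, which cross-links collagen, read 715, 516, 590 and 521 with saline and 1914, 2255, 1028 and 1304 with bleomycin. Its groups did not overlap (1.29, SE 0.16, adjusted p = 0.00313). Tnc, tenascin-C, a matrix protein of healing tissue, read 125 to 210 with saline and 242 to 1008 with bleomycin (1.14, SE 0.21). Col5a2 read 2211, 1745, 1943 and 1351 with saline and 4268, 4614, 2932 and 3210 with bleomycin, again without overlap (1.01, SE 0.13, adjusted p = 0.00326). Col1a1 and Col3a1, chains of the main fibrillar collagens, had overlapping pooled groups, but within each block their bleomycin arrays lay above the saline arrays. Col1a1 rose by 0.41 (SE 0.09, adjusted p = 0.043), and a second Col1a1 probe set differed by 0.24 (adjusted p = 0.3). Col3a1 read 4243, 3841, 2314 and 2026 with saline and 4624, 5091, 4273 and 4226 with bleomycin. It rose by 0.60 (SE 0.14, adjusted p = 0.045), with 0.26 in the C57BL/6J block and 0.94 in the BALB/c block, and its other probe sets gave 0.61 (adjusted p = 0.0228) and 0.37 (adjusted p = 0.0974). Fn1, fibronectin, did not pass (-0.09), nor did Acta2, the smooth muscle actin of myofibroblasts (-0.01, adjusted p = 0.993), nor any other of the 13 myofibroblast genes tested by limma, of which 0 had an unadjusted p under 0.05. Against the saline arrays of 14 d the Acta2 difference was 0.83 and passed.

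Proteases, their inhibitors and growth factors act around the matrix. Timp1, the main secreted inhibitor of metalloproteinases, read 2116, 2191, 1584 and 2495 with saline and 6046, 4796, 2630 and 3694 with bleomycin (0.96, SE 0.19, adjusted p = 0.0229), without overlap. Adam8, a myeloid sheddase, read 109, 421, 201 and 98.5 with saline and 979, 762, 520 and 667 with bleomycin (1.55, SE 0.27, adjusted p = 0.0134). Mmp3, stromelysin-1, rose by 1.17 (SE 0.13), F3, tissue factor, by 0.85 (SE 0.14), and 6 of 23 members rose in all. Of 32 growth factor genes, Ccn2, a matrix-associated mediator of TGF-beta responses, rose from 1918, 2542, 3035 and 2792 to 4977, 4656, 4489 and 5063 (0.89, SE 0.12, adjusted p = 0.00439). It alone rose, and Igfbp3 and Igfbp6 fell. Tgfb1 itself did not pass (-0.08, adjusted p = 0.813). Blmh, bleomycin hydrolase, the enzyme that inactivates the drug, did not pass either (-0.04, SE 0.11, adjusted p = 0.875) and read 1585 to 2313 with saline and 1627 to 1899 with bleomycin.

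**Figure D2:**
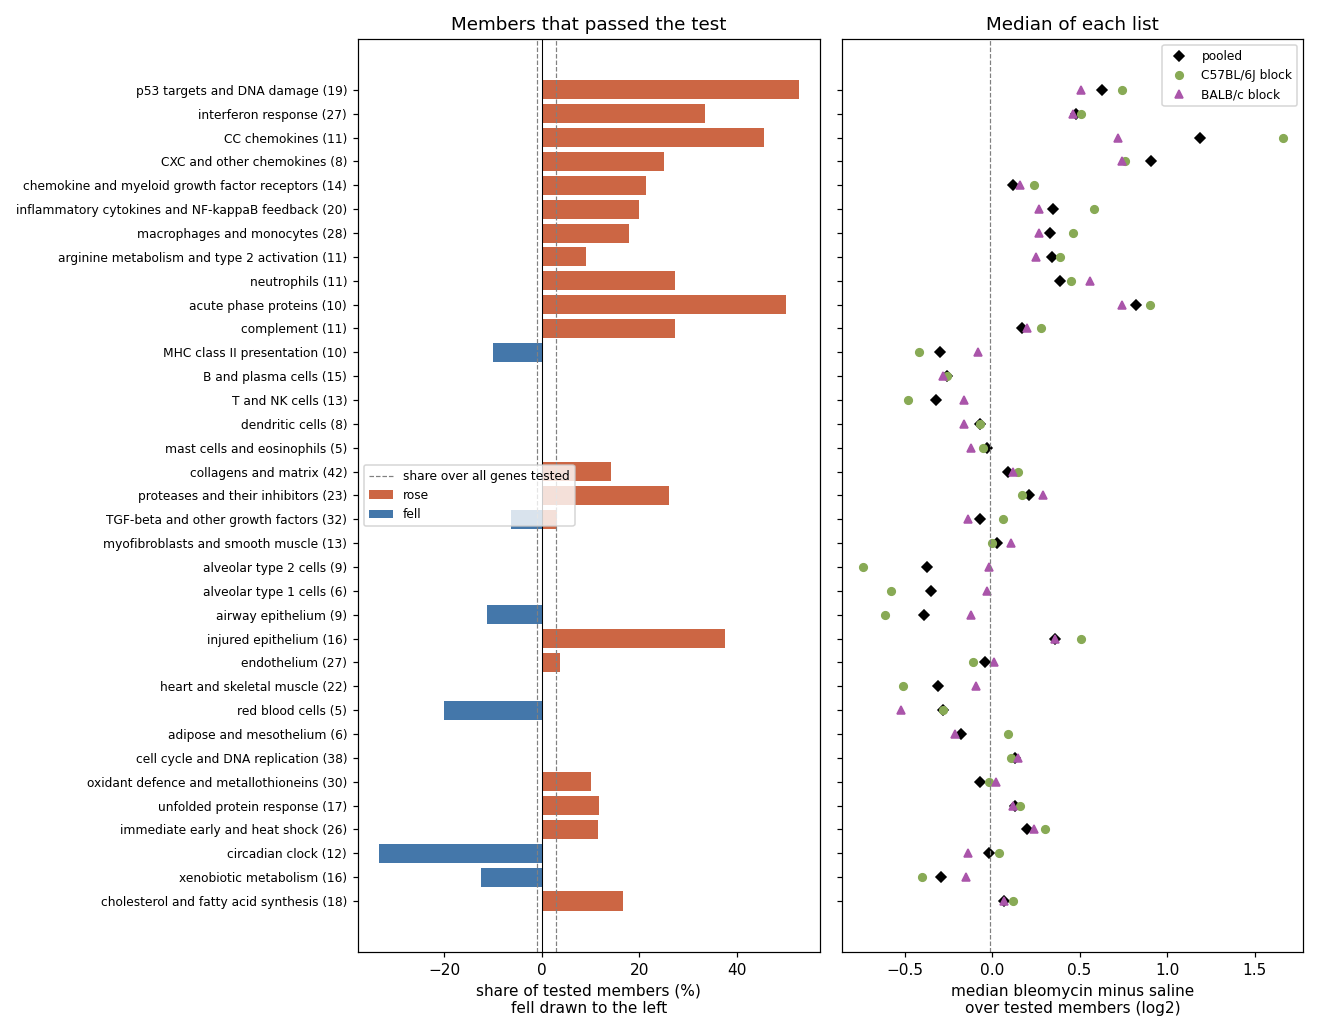
Left, the share of tested members (%) of each of the 35 gene lists that rose (right of 0) or fell (left of 0), with the number tested in parentheses and dashed lines at the shares over all genes tested (2.99% and 1.05%). Right, the median log2 difference of each list, pooled and in each strain block. Of 19 p53 target and DNA damage genes 10 rose, and of 12 clock genes 4 fell.

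Dbp, a clock output factor driven by CLOCK and BMAL1, read 624, 1092, 935 and 755 with saline and 149, 110, 516 and 272 with bleomycin. The C57BL/6J bleomycin arrays were lowest and no array overlapped (-1.52, SE 0.26, adjusted p = 0.0134). Nr1d1, the clock repressor REV-ERB alpha, read 1783, 1808, 2258 and 1914 with saline and 667, 798, 1347 and 836 with bleomycin (-1.05, SE 0.15, adjusted p = 0.00439). Tef and Nr1d2 fell by 0.62 and 0.60, so 4 of 12 clock genes fell and none rose, while the list's median was -0.02. The labels give no hour of harvest, so treatment and clock time cannot be told apart. Against the saline arrays of 14 d the Tef difference was 0.40, and 3 of the 12 clock genes rose and 3 fell. Against those of 24 h and 14 d none rose and 3 fell.

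Cyp1a1, the enzyme of the aryl hydrocarbon receptor pathway, read 776, 666, 583 and 599 with saline and 128, 194, 225 and 246 with bleomycin. The groups were well apart (-1.38, SE 0.16, adjusted p = 0.00199), and with Ces1d, a lung carboxylesterase (-0.53), it was 1 of 2 among 16 xenobiotic genes that fell. Igfbp3, which carries insulin-like growth factors, read 699, 981, 1155 and 779 with saline and 284, 255, 396 and 312 with bleomycin (-1.29, SE 0.15, adjusted p = 0.00204). Its second probe set differed by -0.98. Pon1, paraoxonase, read 1037 to 1583 with saline and 357 to 768 with bleomycin (-1.28, SE 0.20). Ackr4, a scavenger receptor that takes up CCL19 and CCL21, read 357 to 646 and 68.1 to 294 (-1.28, SE 0.27). The differences in the C57BL/6J and BALB/c blocks were -1.58 and -0.99 for Pon1 and -1.95 and -0.61 for Ackr4. Acss1, a mitochondrial acetyl-CoA synthetase, read 3169, 2372, 2991 and 3139 with saline and 1165, 1222, 1641 and 1634 with bleomycin, again without overlap, and fell by 1.0 (SE 0.11, adjusted p = 0.00149). Slc4a5, a bicarbonate cotransporter (-1.23), Car3, a carbonic anhydrase (-1.16), Cdh16, a cadherin (-1.06), Chad, a cartilage matrix protein (-1.02) and Mycl, a MYC family factor (-0.99) completed the 12 largest falls among genes with separate groups.

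Markers of other cell types in the lung are given as values beside these falls. None of 15 B and plasma cell genes passed by limma (8 at an unadjusted p under 0.05), but 14 had a negative difference, their median was -0.26, and their summed level did not overlap between groups (12295 to 16132 with saline, 9971 to 12006 with bleomycin). Fcer2a, the B cell IgE receptor, read 677, 688, 846 and 731 with saline and 409, 98.8, 452 and 439 with bleomycin (-1.02, adjusted p = 0.0622). Alas2, the haem enzyme of red cell precursors, fell by 0.74 (adjusted p = 0.0488), and the summed red cell list lay at 5763 to 16658 with saline and 3047 to 4136 with bleomycin. Of the 5 red cell genes, Alas2 was the only 1 that passed or had separate groups, and as a bright gene it weighs heavily in that sum. Hba-a1, a haemoglobin gene, read 0.429 to 12838 with saline and 7.23 to 520 with bleomycin. None of 22 heart and skeletal muscle genes passed by limma (5 at an unadjusted p under 0.05), 21 of them were negative, and the median was -0.31, at -0.51 in the C57BL/6J block and -0.09 in the BALB/c block. The summed muscle level overlapped, at 18681 to 25821 with saline and 11114 to 25758 with bleomycin. Of 10 MHC class II genes, H2-DMb1 fell by 0.43 (adjusted p = 0.0384) and none rose. Only 1 of the 10 had a positive difference, and their median was -0.30. None of 13 T and NK cell genes passed by limma (2 at an unadjusted p under 0.05). Only 2 of the 13 had a positive difference, and their median was -0.32. Of the lists not yet described, Lyve1, a lymphatic and macrophage receptor, rose by 0.67 as 1 of 27 endothelial genes, near the share over all genes tested (2.99%). Gatm, of creatine synthesis, rose by 0.90 as 1 of 11 arginine metabolism genes. By limma none of the 8 dendritic, 5 mast cell and 6 adipose genes passed, and 1, 0 and 3 of them had an unadjusted p under 0.05. The part of such cells in the falls was not tested.

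The pooled effect was then split by block. Every one of the 193 risen and 68 fallen genes had the same sign in both blocks, as a pooled test favours. Of the 193 risen genes, 134 passed within the C57BL/6J block, 26 within the BALB/c block and 24 within both. Of the 68 fallen genes, 44, 4 and 3 did so. The difference was larger in the C57BL/6J block for 158 of the risen and 50 of the fallen genes, with medians of 0.83 against 0.60 and -0.73 against -0.49. Mt2 was larger in the BALB/c block, at 1.85 against 1.20. Without the arrays whose descriptions name bleomycin, which leaves the BALB/c block as the sole source of the difference, 34 probe sets passed, and all 338 kept their sign. Without both arrays titled C57 saline, which leaves the C57BL/6J block, 575 passed.

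**Figure D3:**
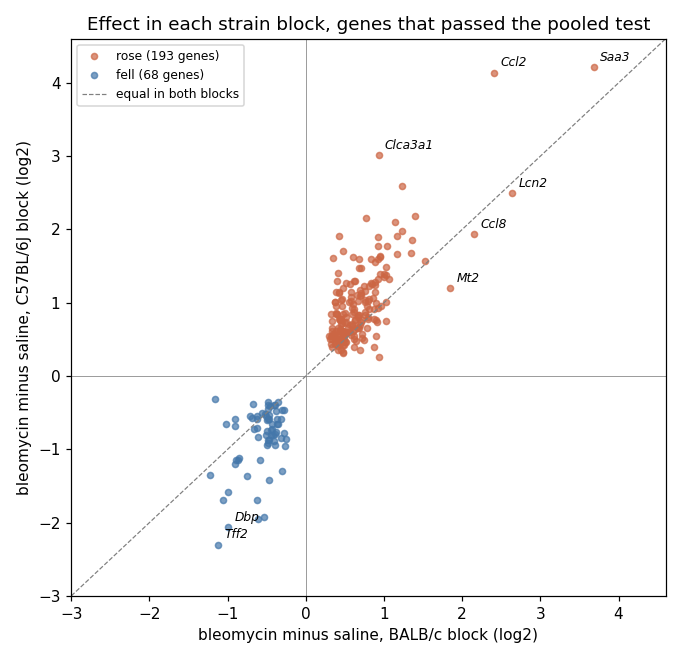
Log2 difference, bleomycin minus saline, in the BALB/c block (horizontal) and the C57BL/6J block (vertical) for the 193 risen and 68 fallen genes. Each point is a gene and the dashed line marks equal differences. Most points lie further from 0 on the vertical axis, with Ccl2 at 4.14 and 2.41 and Mt2 at 1.20 and 1.85.

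The difference between blocks itself passed for 11 genes (0.17% of 6464) and 16 probe sets (0.184%). Arg1, arginase 1, an enzyme of alternatively activated macrophages, read 168, 162, 80.7 and 47.2 with saline and 1168, 1619, 74.7 and 112 with bleomycin. It was high only on the C57BL/6J bleomycin arrays, and the difference between blocks was 2.27 (SE 0.32, adjusted p = 0.0438). Clca3a1, a regulator of calcium-activated chloride currents, read 177, 197, 84.2 and 142 with saline and 1771, 2641, 298 and 291 with bleomycin, and differed between blocks by 2.08 (SE 0.31, adjusted p = 0.0471). Rsad2, the interferon-induced antiviral protein viperin, read 526, 500, 468 and 469 with saline and 1440, 1255, 427 and 377 with bleomycin (1.43 between blocks, adjusted p = 0.0438). Slc6a2, the noradrenaline transporter, differed by 1.87, rising to 492 and 496 on the C57BL/6J bleomycin arrays and reading 93.6 and 83.6 on the BALB/c ones. A second Slc6a2 probe set gave -0.45 between blocks.

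In the other direction, Eln, elastin, read 9105, 6398, 6882 and 6041 with saline and 1480, 1067, 5974 and 6953 with bleomycin. It was low only on the C57BL/6J bleomycin arrays (-2.52 between blocks, SE 0.28, adjusted p = 0.0159), whereas a second, dimmer Eln probe set went the opposite way, at 0.99 (adjusted p = 0.422). Hc, complement component 5, read 5703, 5653, 4043 and 3081 with saline and 1159, 1362, 2898 and 2978 with bleomycin (-1.84, SE 0.21, adjusted p = 0.0159). Plk3, a polo-like kinase, read 4230 and 6650 on the C57BL/6J block saline arrays and 793 and 747 on the BALB/c block saline arrays. With bleomycin it read 553, 482, 2095 and 2308 (-4.56, SE 0.28, adjusted p = 0.000176). Its values were erratic at the other times. At 24 h Plk3 read 368 to 7991 with saline and 0.0509 to 3.49 with bleomycin, and at 14 d 0.443 to 1231 and 2.79 to 4645. Grb7, a signalling adaptor (-1.57), Chrne, an acetylcholine receptor subunit (-2.50) and Wdr92, a dynein assembly factor (-2.34) were the remaining named genes, and Scd1, a fatty acid desaturase (-1.52), was the eleventh. A second, dimmer Chrne probe set gave 0.14 between blocks (adjusted p = 0.955). Every one of these differences rests on the saline arrays whose titles oppose H2-Ea. With the spread estimated from all 24 arrays, no probe set passed by limma (561 at an unadjusted p under 0.05, and 885 in the 8-array fit), and with strain taken from the titles 359 passed.

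**Figure D4:**
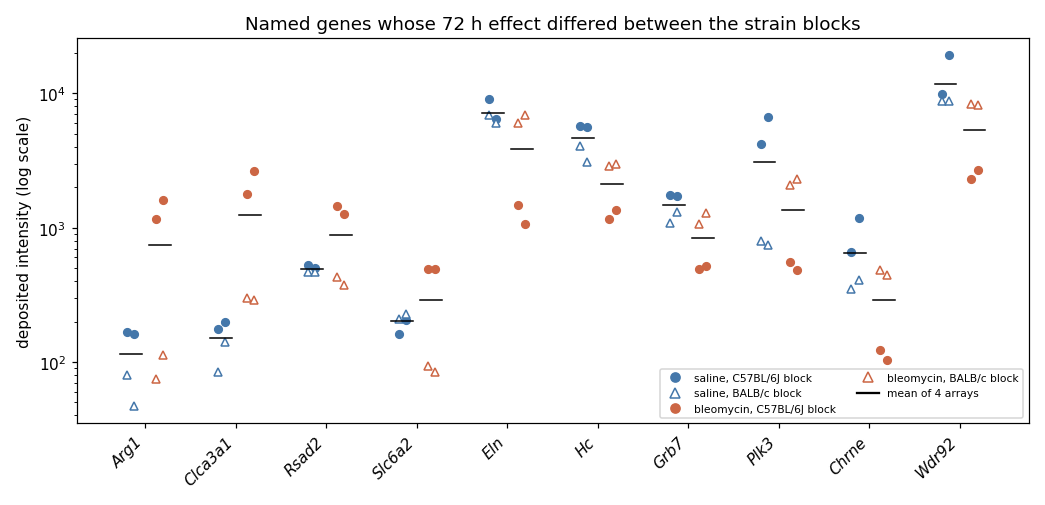
Deposited intensity (log axis) on each of the 8 arrays for the 10 named genes whose bleomycin difference was unequal in the strain blocks. Filled circles are the C57BL/6J block, open triangles the BALB/c block, and the black line is the mean of 4 arrays. Arg1 reads 1168 and 1619 on the C57BL/6J bleomycin arrays and 112 or less on the BALB/c ones.

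The 72 h effect was last set beside the effects at 24 h and 14 d, estimated together from all 24 arrays. At 14 d, 481 genes rose and 311 fell (7.44% and 4.81%), and at 24 h, 119 rose and 74 fell (1.84% and 1.14%). In the same fit 165 rose (2.55%) and 57 fell (0.882%) at 72 h. Of the 193 genes risen at 72 h, 101 passed in either direction at 14 d and 30 at 24 h, with medians of 0.57 and 0.20. At those times 178 and 139 of them had a positive difference. Each time has its own saline arrays. The difference of effects between 72 h and 14 d passed for 4 genes (0.0619%) and 6 probe sets (0.0689%).

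Isg15 and Usp18 were higher at 72 h than at 14 d by 1.10 (SE 0.16, adjusted p = 0.00763) and 1.18 (SE 0.17, adjusted p = 0.00763). Isg15 read 1034 to 1213 with saline and 999 to 1192 with bleomycin at 14 d, so its groups overlapped there. At 24 h its difference was 1.10 and at 14 d -0.03. Fbln2, fibulin-2, a matrix glycoprotein, read 434 to 607 with bleomycin at 72 h and 452 to 2591 at 14 d, and its 72 h effect was lower by 1.23 (SE 0.20, adjusted p = 0.013). Pld3, a lysosomal nuclease, read 940 to 1055 with bleomycin at 72 h and 2818 to 4873 at 14 d, lower at 72 h by 1.16 (SE 0.19, adjusted p = 0.0199). Between 72 h and 24 h no gene passed by limma, though 1 probe set with several gene names did and 1379 probe sets had an unadjusted p under 0.05. With the BALB/c arrays alone at 24 h, a choice made after seeing the data, 48 probe sets passed.

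Gene lists at the other times are given side by side, all from the fit over 24 arrays and with no test of the difference. Of 19 p53 target and DNA damage genes, 11 rose at 24 h, 9 at 72 h and 6 at 14 d. Their median went through 0.78, 0.63 and 0.18. Interferon genes had medians of 0.38, 0.48 and -0.01, with 3 rises and 1 fall at 14 d. Of 28 macrophage genes, none rose at 24 h, 2 at 72 h and 17 at 14 d. Of 42 matrix genes, none, 3 and 19 rose, and of 38 cell cycle genes, 1, 1 and 15. Saa3 had log2 differences of 1.48, 3.95 and 3.71, but its 24 h saline arrays ranged from 360 to 25728 and that difference did not pass (adjusted p = 0.378). Lcn2 and Cd14 also ranged widely on the 24 h saline arrays (1301 to 19139 and 1578 to 8563), while C1qa did not (1523 to 1801). The part of these controls in the 24 h counts and medians was not tested. Cdkn1a had differences of 1.90, 1.51 and 1.03, all past the threshold.

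**Figure D5:**
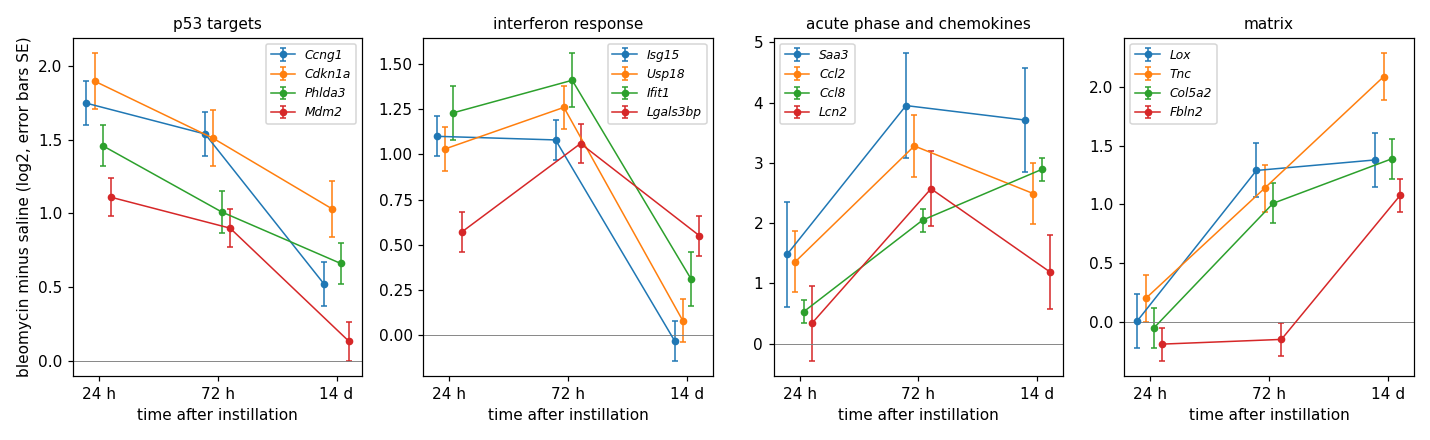
Log2 difference, bleomycin minus saline, at 24 h, 72 h and 14 d for 4 p53 targets, 4 interferon response genes, 4 acute phase or chemokine genes and 4 matrix genes, from the fit over all 24 arrays. Points are estimates and bars their standard errors. Isg15 lies at 1.10, 1.08 and -0.03, and Fbln2 at -0.19, -0.15 and 1.08.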

How the data were processed

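Lung RNA of 24 samples was measured on oligonucleotide arrays, and the 8 arrays at 72 h are described. The deposited table holds 1 intensity per probe set and array on a linear scale. On every array the mean of values between the lowest 2% and the highest 2% was 799.9. The authors' way of summarising probes into intensity values stays unstated in the labels and files used here. From these values, 66 control probe sets were removed, 92 was added (the lower quartile of a typical array), and log2 was taken. Probe sets above 225.7 (the 40th percentile) on at least 2 of 24 arrays were tested with limma 3.58.1 in R 4.3.3, with treatment and strain block as terms, a variance trend and Benjamini-Hochberg adjustment over 8710 probe sets (call at 0.05, two-sided). Names came from the platform annotation, updated through RefSeq GRCm38.p6: of 12422 probe sets, 10833 had 1 name, 396 several and 1193 none, and 10817 matched. Named genes were the 12 largest non-overlapping rises and falls, up to 4 members of each of 35 lists with the smallest p, 9 fixed genes where tested, and up to 6 per direction of each difference. Other list members were named after their values were seen. The members and lists were chosen with earlier results of these data known. Same-letter arrays (a, b) of different groups had residual correlations of -0.22 to 0.13 over 6 group pairs, so the letters do not pair arrays. The fits were tested on simulated data.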

Additional observations from a re-analysis of the deposited data

Results flagged for a closer look

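The bleomycin difference at 72 h was unequal in the C57BL/6J and BALB/c blocks, by the test of the difference itself, for Arg1 (2.27), Clca3a1 (2.08), Slc6a2 (1.87) and Rsad2 (1.43), larger in the C57BL/6J block, and for Grb7 (-1.57), Hc (-1.84), Wdr92 (-2.34), Chrne (-2.50), Eln (-2.52) and Plk3 (-4.56), lower in it. Median differences of the muscle, alveolar type 2 and airway marker lists were -0.51, -0.74 and -0.61 in the C57BL/6J block and -0.09, -0.02 and -0.12 in the BALB/c block, and the part of such cells in these values was not tested.

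A single array stood apart from the other 3 of its treatment in 11 of 334 sets of 4 arrays looked at, where chance alone would mark about 1 in 20 sets of 4 like arrays. That rate does not apply directly here. Each set mixes the strains, and many of the genes were chosen for separate groups or small p. Among the bleomycin arrays these were the first BALB/c array for Alas2 (2297), Cebpd (8083) and Creld2 (717), the first C57BL/6J array for Fbln2 (607) and Junb (1493), and the second C57BL/6J array for Fcer2a (98.8) and Tagln (3428). Among the saline arrays these were the first array of the C57BL/6J block for Kif22 (1007) and Nr1d2 (1027) and the second for Lpcat1 (4073) and Wdr92 (19167).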

How the results depend on the processing

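By pooled test, 338 probe sets passed at 72 h. The strain block by title gave 165, no block 126, the saline 14 d arrays as control 788, the saline arrays of 24 h and 14 d 510, no arrays titled BALB saline 34 and no arrays titled C57 saline 575 (added after seeing the data). The a and b letters as a replicate block gave 248, and no filter 237, no variance trend 234. Leaving out 1 array gave 113 to 382. The difference between blocks passed for 16 probe sets, for 8 with an offset of 46.0, 5 with no filter, 4 with no variance trend, 359 with strain by title and 0 over all 24 arrays, with 2 to 43 when 1 array was left out. The difference from 14 d passed for 6, for 11 with an offset of 276, and for 4 to 85 with 1 array left out. The difference from 24 h passed for 1, for 25 with quantile normalization, 16 with an offset of 276, 14 with the 60th percentile filter, 11 with no variance trend, 69 with array weights, 48 with BALB/c arrays only at 24 h (added after seeing the data), and 0 to 69 with 1 array left out. With other saline controls Acta2 became 0.83, Cxcl2 -0.63, Fdps -0.12 and -0.08, Il1rn -0.01 and Tef 0.40 and 0.19. Plk3 became 1.41 without the arrays titled BALB saline, and its difference between blocks 0.73 with strain by title. The cause of these changes was not tested. Few arrays, an unrecorded summarisation and dim probe sets limit the precision.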

Other observations

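Proteasome genes were looked at after their values were seen. Of 29 tested subunits of the constitutive proteasome, 12 rose, none fell, 28 had a positive difference, and the median was 0.35 (0.40 in the C57BL/6J block and 0.34 in the BALB/c block). Psmb6, a catalytic subunit, rose by 0.72 (SE 0.09, adjusted p = 0.00326), Psma6, of the outer ring, by 0.66 (adjusted p = 0.0234), and Psmd14, the deubiquitinase of the lid, by 0.57 (adjusted p = 0.00621). The bleomycin arrays lay above the saline arrays for 18 subunits. Over all genes tested, 2.99% rose, 47.5% had a positive difference and 7.19% had all bleomycin arrays above all saline arrays. None of the 4 tested subunits particular to the immunoproteasome or its interferon-induced activator passed by limma (2 at an unadjusted p under 0.05). All 4 had a positive difference, with a median of 0.26 (0.14 in the C57BL/6J block and 0.44 in the BALB/c block). The medians of the 29 subunits at 24 h and 14 d were -0.04 and 0.20.

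Genes known to be induced by glucocorticoids were also listed after values were seen. Of 16 tested, 9 rose (Lcn2, Mt2, Mt1, Fkbp5, Ddit4, Cebpd, Angptl4, Pdk4 and Sgk1), against 2.99% of all genes tested. Of these, Lcn2, Mt2, Mt1, Ddit4 and Cebpd were already counted in lists above. Fkbp5, a chaperone partner of the glucocorticoid receptor, rose by 1.17 (SE 0.28, adjusted p = 0.0468) with overlapping groups, Angptl4, an inhibitor of lipoprotein lipase, by 0.74 (adjusted p = 0.0137) and Pdk4, which restrains glucose oxidation, by 0.58 (adjusted p = 0.0303). Tsc22d3 (-0.52, adjusted p = 0.213), Klf9 (-0.27), Zbtb16 (-0.24), Per1 (0.17), Dusp1 (0.08), Nfkbia (0.26) and Errfi1 (0.41), the other genes listed, did not pass.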
